A study of Mus musculus with 3 samples.

Results

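The clustered protocadherins are 57 protein-coding genes that lie in 3 neighbouring arrays on mouse chromosome 18: 14 genes of the alpha cluster, 22 of the beta cluster and 21 of the gamma cluster, out of 21887 protein-coding genes in the RefSeq table of the assembly GRCm38. They were taken by their symbols (Pcdha, Pcdhb, Pcdhga, Pcdhgb and Pcdhgc with a number, or Pcdhac1 and Pcdhac2). FOXF1, a forkhead transcription factor of the lung mesenchyme and its vessels, was mapped by ChIP-seq, in which DNA bound to an antibody's target is recovered and sequenced. The tissue was whole lung of C57BL/6 wild-type mice at embryonic day 18.5. The 2 biological replicates were each a pool of 3 lungs, precipitated with a FOXF1 antibody, and the authors called each replicate against a 2% input from lungs of the same strain and age. A shared site is a pair of summits, 1 from each replicate, that are each other's nearest and at most 100 bp apart, placed midway between them. From 50 kb before Pcdha1 to 50 kb after the last gamma gene there were 22 shared sites, of 51013 in the genome.

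Clustered protocadherins are cell-surface adhesion proteins of the cadherin superfamily, best known from neurons, where each cell expresses its own combination of them and homophilic binding lets a cell recognise its own processes. In the alpha and gamma clusters each gene has a promoter and a large variable first exon of its own, and all genes of a cluster are spliced to the same constant exons at the far end. Beta genes have no constant exons. The genes at the far end of the alpha and gamma arrays, called C-type (Pcdhac1, Pcdhac2, Pcdhgc3, Pcdhgc4 and Pcdhgc5), are known to be used more steadily than the alternating genes before them. The factor CTCF and the cohesin complex are known to loop the promoters to enhancers that lie at or beyond the constant exons. The positions of those enhancers are not part of the files used here and were not matched to sites.

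The tables used here give no strand for these genes. The 14 alpha genes had 14 different left ends on the map and right ends within 1240 bp of each other, and the 21 gamma genes had 21 different left ends and right ends within 10 bp of each other. The left end is therefore used below as the start of each gene, which is also the known direction of the clusters. Genes of the alpha cluster were 44.0 to 257.4 kb long and those of the gamma cluster 22.3 to 180.1 kb, and they overlap, so that a site near the constant exons lies inside every gene of its cluster. Beta genes were 2.3 to 5.3 kb long and did not overlap. The gene group was chosen by where shared summits of these same lists fall, so the counts below are a description and carry no test. With read depth not given in the sources used here, scores are read by their rank within a replicate. In whole lung, strong binding in few cells and weak binding in many cannot be told apart.

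The beta cluster held no FOXF1 summit at all, in either replicate. It spans positions 37264998 to 37521419 (256.4 kb, mm10) from Pcdhb1 to Pcdhb22, and none of its 22 genes had a shared site within 5 kb of either end, against 54.4% of all protein-coding genes. The last shared site before Pcdhb1 lay 73.7 kb away and the first after Pcdhb22 lay 134.3 kb away. Pcdhb11, in the middle of the array, lay 230.1 kb from the nearest shared site. Replicate 1, whose list is the longer, had its nearest summits 47.6 kb before and 122.9 kb after the cluster. Of windows of the same length centred on each protein-coding gene, 15.0% held no shared site and the median window held 6.

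**Figure D1:**
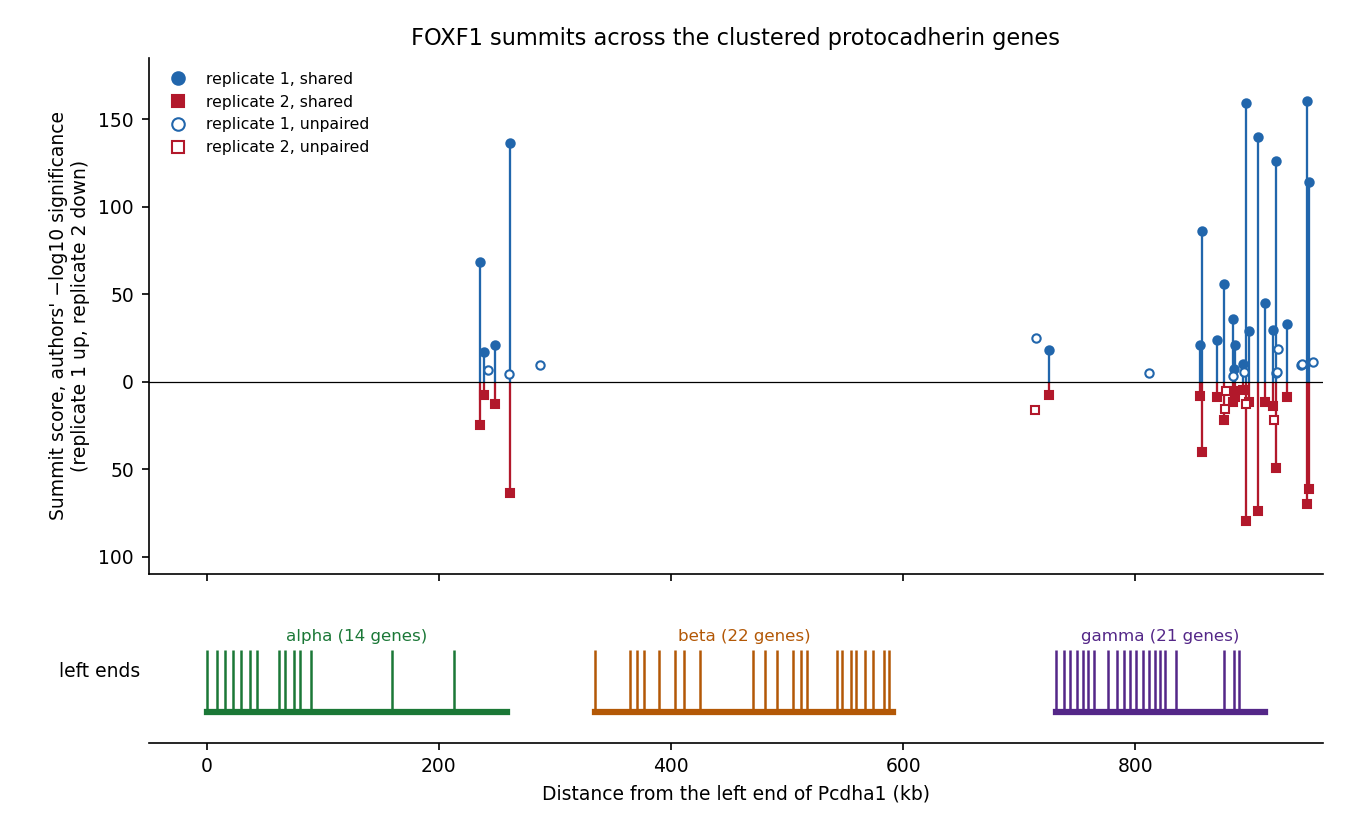
Map of the region by distance from the left end of Pcdha1 (horizontal axis, kb), with the score of each summit, the authors' −log10 significance, drawn upwards for replicate 1 and downwards for replicate 2. Filled symbols are the 22 shared sites, open symbols are summits with no partner within 100 bp, and vertical ticks below mark the left ends of the 57 genes; the beta cluster and all but the last part of the alpha cluster are empty in both replicates.

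The site-free stretch around the beta cluster was long and rich in genes. It ran 464.4 kb between neighbouring shared sites at positions 37191336 and 37655740, and 98.6% of the 50992 stretches between neighbouring shared sites in the genome were shorter, with a median of 14.3 kb. Wholly inside it lay 24 protein-coding genes, namely the 22 beta protocadherins and their neighbours Slc25a2, a mitochondrial ornithine carrier gene, and Taf7, a gene of the basal transcription factor TFIID. Including this one, 39 stretches held 24 or more protein-coding genes. Olfactory receptor genes made up over 50% of the genes in 19 of these, and vomeronasal receptor genes in 5. Of the 39 stretches, 1 was shorter than the beta stretch, a stretch of 399.6 kb on chromosome 7 with 27 genes, of which 22 were olfactory receptor genes.

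**Figure D2:**
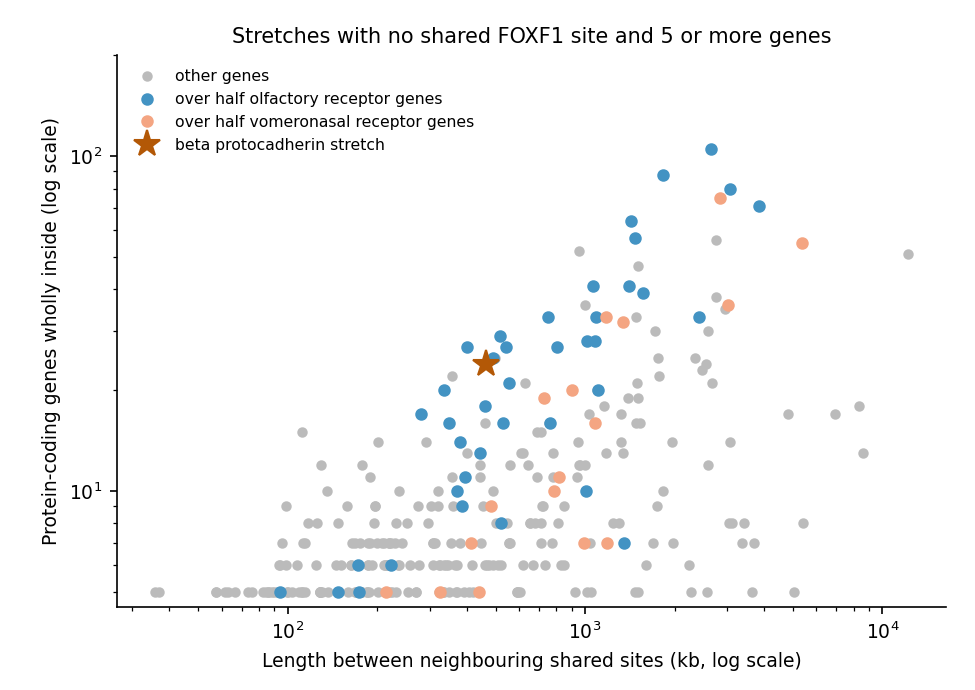
Each point is a stretch between neighbouring shared sites that wholly holds 5 or more protein-coding genes (309 stretches), by its length in kb (horizontal, log axis) and its number of genes (vertical, log axis). The star is the beta protocadherin stretch, at 464.4 kb and 24 genes, and blue and orange points are stretches made up mostly of olfactory and vomeronasal receptor genes.

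Taf7, which lies between the beta and gamma clusters, had a summit of each replicate at its right end. That of replicate 1 lay 83 bp from the end, with a score of 24.6, and that of replicate 2 lay 62 bp from it, with 16.2. The pair was 145 bp apart and so just outside the limit for a shared site, and it is a shared site when 200 bp is allowed. The pairs just inside the limit were those at 37815370 by Pcdhgc4 (88 bp apart) and at 37851124 inside Diaph1 (86 bp). The only shared site between the beta and gamma clusters lay at 37655740, 6.0 kb before Pcdhga1, with scores of 18.1 and 7.78, near the middle of the list of replicate 1 (percentile 46.8) and in the lower part of that of replicate 2 (percentile 16.5).

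In the alpha cluster the genes began in a stretch with no summit of either replicate, and all sites lay behind the last start. From Pcdha1 to the start of Pcdhac2 there are 213.4 kb with no summit, and this stretch holds the starts of the 12 numbered alpha genes and of Pcdhac1. Of windows of that length centred on protein-coding genes, 16.5% had no shared site. Pcdha1, the first gene, lay 128.6 kb from the nearest shared site, and Pcdha8 lay 173.1 kb from it, the farthest of the cluster. Pcdhac1 lay 75.5 kb away and Pcdhac2, the last gene, 21.9 kb. The 50 kb before Pcdha1 held no summit either. On that side the nearest shared site lay at 36801700, 2040 bp past the right end of the zinc finger gene Zmat2, which had another shared site 18 bp from its left end.

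Between the start of Pcdhac2 and the end of the alpha cluster, 3 shared sites fell in 45.2 kb, and a high site followed beyond the end. All 3 lie inside each of the 14 alpha genes as RefSeq draws them. The site at 37165616, 21.9 kb into Pcdhac2, had scores of 68.3 in replicate 1 and 24.5 in replicate 2, which put it in the top 14.1% and top 37.4% of all summits of the respective list. The site at 37178485 had scores of 20.7 and 12.7, and the site at 37169633 had 16.9 and 7.78. The 2 latter sites thus ranked in the middle or lower part of both lists. Beyond the cluster, 2.4 kb past the right end of Pcdha6 and 3.7 kb past those of the other 13 alpha genes, the site at 37191336 had scores of 136.1 and 63.9, in the top 3.27% and top 7.07% of the respective list. It is the last site before the beta cluster.

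In the gamma cluster, the only starts with a shared site within 5 kb were those of C-type genes, in a stretch dense in sites throughout. Of the 18 Pcdhga and Pcdhgb genes none had a shared site within 5 kb of its start, while all 3 Pcdhgc genes did. Among all protein-coding genes with a strand the share was 49.2%. From Pcdhgc3 to the cluster end every position lay within 5 kb of a shared site, so the count of 3 follows from that density. Within 1 kb of the start, Pcdhgc3 and Pcdhgc4 had a site and Pcdhgc5 did not. The C-type genes of the alpha cluster, Pcdhac1 and Pcdhac2, lay 75.5 and 21.9 kb from a shared site. Distances from the alternating starts were 6.0 kb for Pcdhga1, the first gene, 64.6 kb for Pcdhgb4, the farthest, and 20.1 kb for Pcdhga12, the last. Pcdhgb6 had a summit of replicate 1, 102 bp before its start, with a score of 5.07 and no partner in replicate 2, whose nearest summit lay 43674 bp from it. That score stood at percentile 4.45 of the summits of replicate 1.

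Pcdhgc3, the first C-type gene of the cluster, had a shared site 138 bp before its start, at 37806272. Its scores were 55.8 and 21.8, in the top 19.2% and top 42.3% of the lists. Replicate 2 had 2 further summits 665 and 1602 bp after the start, with scores of 15.9 and 5.60 and no partner in replicate 1. Pcdhgc4 had 3 shared sites within 1 kb of its start: 308 bp before it with scores of 35.9 and 11.4, 291 bp after it with 7.06 and 5.60, and 899 bp after it with 20.7 and 8.96. A summit of replicate 1 alone lay 869 bp before that start, with a score of 2.99. Pcdhgc5, the last gene, had its nearest shared site 3.2 kb after the start, with low scores of 10.2 and 4.98. Start-proximal sites of the C-type genes were thus of middle to low rank in replicate 2.

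**Figure D3:**
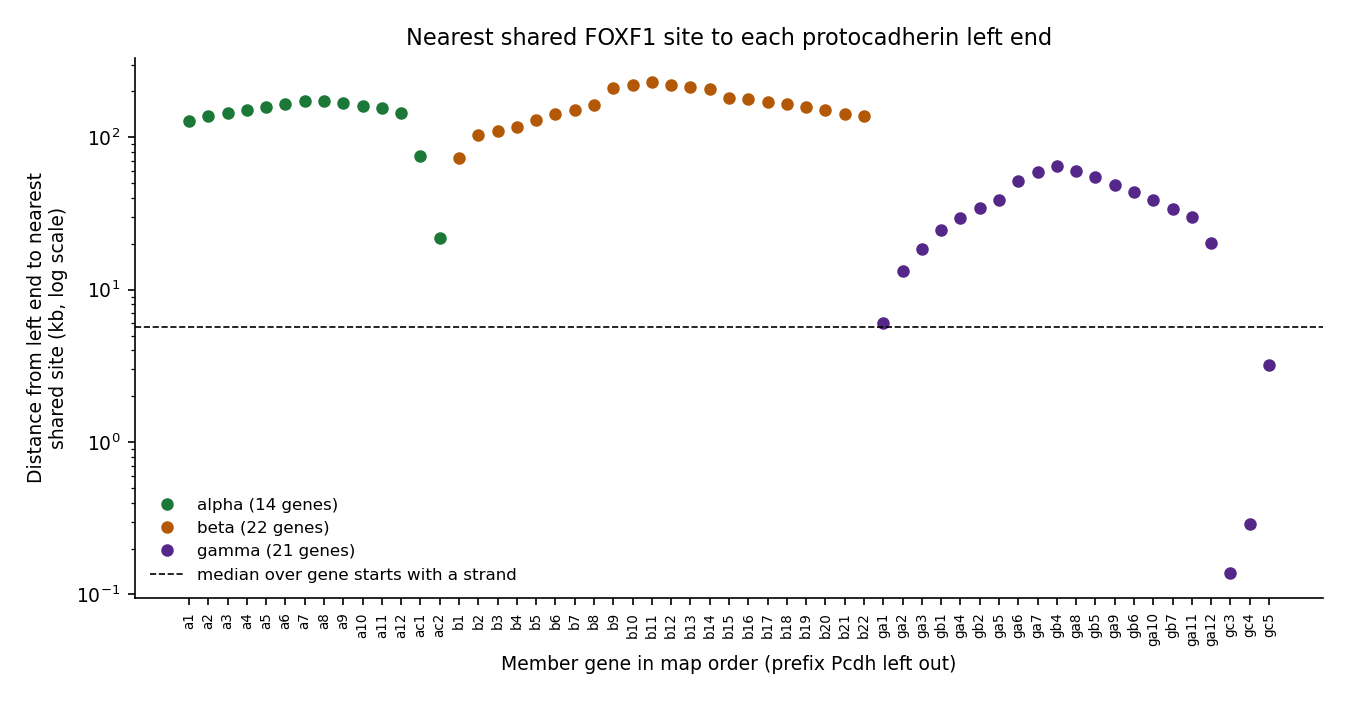
Distance from the left end of each of the 57 genes to the nearest shared site (vertical, kb, log axis), in map order and coloured by cluster. The dashed line is the median of 5.66 kb over 17492 protein-coding gene starts, and Pcdhgc3, Pcdhgc4 and Pcdhgc5 are the 3 genes below it.

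Over all 57 genes, 2 had a shared site within 1 kb of the start, Pcdhgc3 and Pcdhgc4, against 39.6% of the 17492 protein-coding genes for which the promoter table gives a strand. Within 5 kb of the start the count was 3, against 49.2%. The median distance from the start to the nearest shared site was 152.9 kb in the alpha cluster, 161.3 kb in the beta cluster and 34.1 kb in the gamma cluster, against 5.66 kb over the genes with a strand and 12.6 kb over the left ends of all protein-coding genes. Ranked among the genes with a strand, the members' median percentile of distance was 86.4 in the alpha, 86.8 in the beta and 70.6 in the gamma cluster, and no member lay beyond the 90th percentile. With the list of replicate 1 alone, 3 genes had a summit within 1 kb, the third being Pcdhgb6, and with that of replicate 2 alone, 2 had one. The share of all genes within 1 kb was not computed for the single lists, and the 39.6% above holds for shared sites only.

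The count by either end of a gene gives another picture, because the right ends are shared. By that measure all 14 alpha genes and all 21 gamma genes counted as having a shared site at most 5 kb from an end, 35 of 57 members, which is near the 54.4% of all protein-coding genes. These 35 genes also all had a site inside, against 48.1% of all protein-coding genes. The 32 of them without a site by their start were counted through 2 sites alone. For the alpha genes this was the site at 37191336, and for the gamma genes the site at 37841885, which lay 12 to 22 bp past the right ends of the 21 genes with scores of 45.0 and 11.4. With a window of 1 kb the 14 alpha genes were no longer counted and 21 of 57 members were left, against 41.5% of all protein-coding genes. A count of genes here is therefore not a count of separate sites.

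The last part of the gamma cluster was the densest stretch of the members. From the start of Pcdhgc3 to the cluster end, 7 shared sites fell in 35.5 kb, or 19.7 per 100 kb, against 2.77 per 100 kb from Pcdhga1 to the start of Pcdhgc3. Windows of 35.5 kb centred on each protein-coding gene had a median of 1 shared site, and 99.1% held fewer than 7. The boundary at Pcdhgc3 was set after the positions were seen. The single replicates gave 9 and 10 summits in this stretch.

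**Figure D4:**
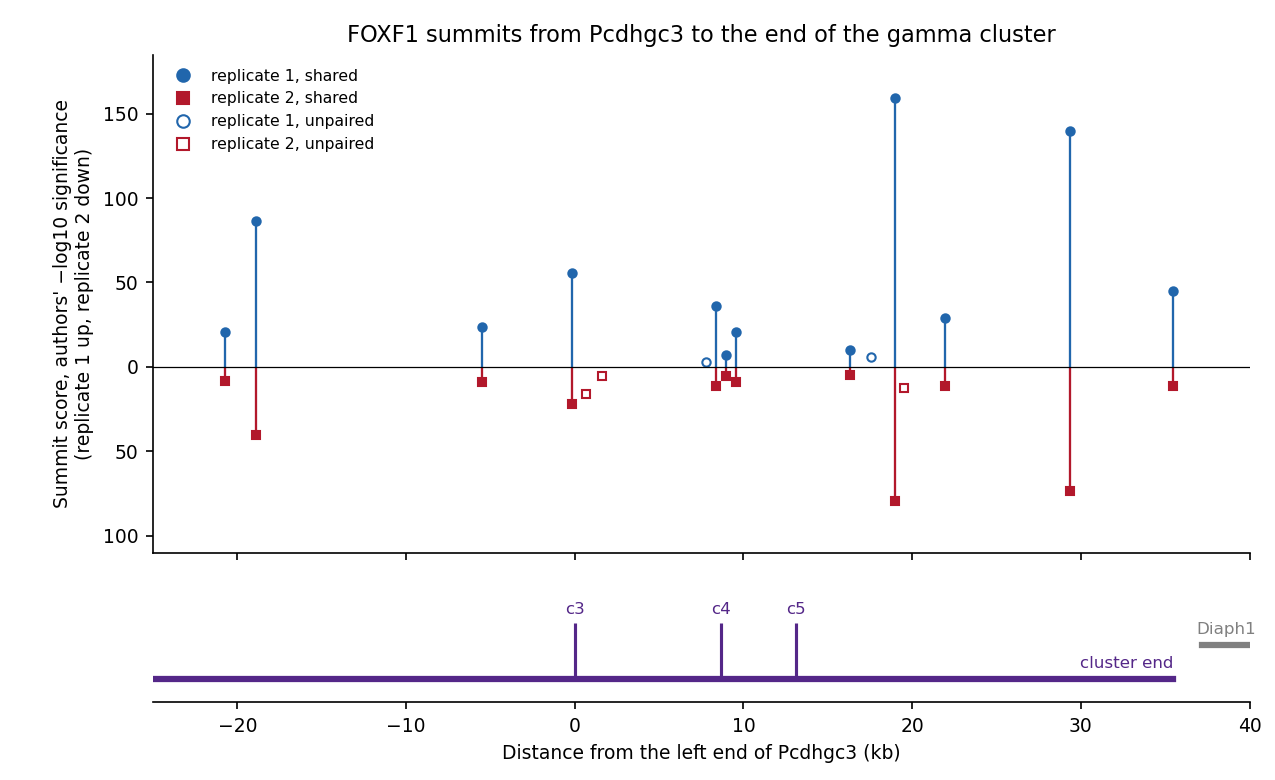
Summit scores (the authors' −log10 significance, replicate 1 upwards, replicate 2 downwards) by distance from the left end of Pcdhgc3 in kb, with the left ends of Pcdhgc3, Pcdhgc4 and Pcdhgc5 marked as c3, c4 and c5. The highest sites, with scores of 159.1 and 79.4 and of 139.5 and 73.7, stand behind the last start, and the sites at c3 and c4 are lower.

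The highest sites of the members lay behind the last gamma start, not at a start. The site at 37825404, 5.9 kb after the start of Pcdhgc5 and inside all 21 gamma genes, had scores of 159.1 and 79.4, in the top 2.01% and top 3.63% of the lists. The site at 37835776, 16.2 kb after that start, had scores of 139.5 and 73.7, in the top 3.05% and top 4.61%. By the mean of both percentiles they held ranks 2030 and 2719 among the 51013 shared sites. Between them lay a lower site at 37828342, inside the lncRNA gene Gm29994, with scores of 28.8 and 11.4. The third highest site of the cluster stood farther left, at 37787545, 18.9 kb before Pcdhgc3 and behind the start of Pcdhga12, with scores of 86.3 and 40.1. Its neighbours at 37785677 and 37800905 had scores of 20.7 and 8.36 and of 23.8 and 8.96, near the middle of the list of replicate 1 (percentiles 51.3 and 55.8) and in the lower part of that of replicate 2 (19.5 and 21.9).

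Sites went on past the gamma cluster into Diaph1, the gene of a formin that nucleates actin filaments, whose left end lies 1716 bp past the site at 37841885. Within the 50 kb after the cluster, 5 shared sites lay inside Diaph1. The highest, at 37877916, had scores of 160.4 and 69.7, followed by 37880185 with 114.2 and 61.1, by 37851124 with 126.1 and 49.4, and by 37849052 and 37861099, with scores of 29.6 and 14.1 and of 33.0 and 8.88. Across the region 5 sites stood above the 90th percentile of both lists: the one beyond the alpha cluster, the 2 behind Pcdhgc5 and 2 in Diaph1. The last shared site of the region lay 11.7 kb inside its right edge and the next lay 38.6 kb outside it.

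**Figure D5:**
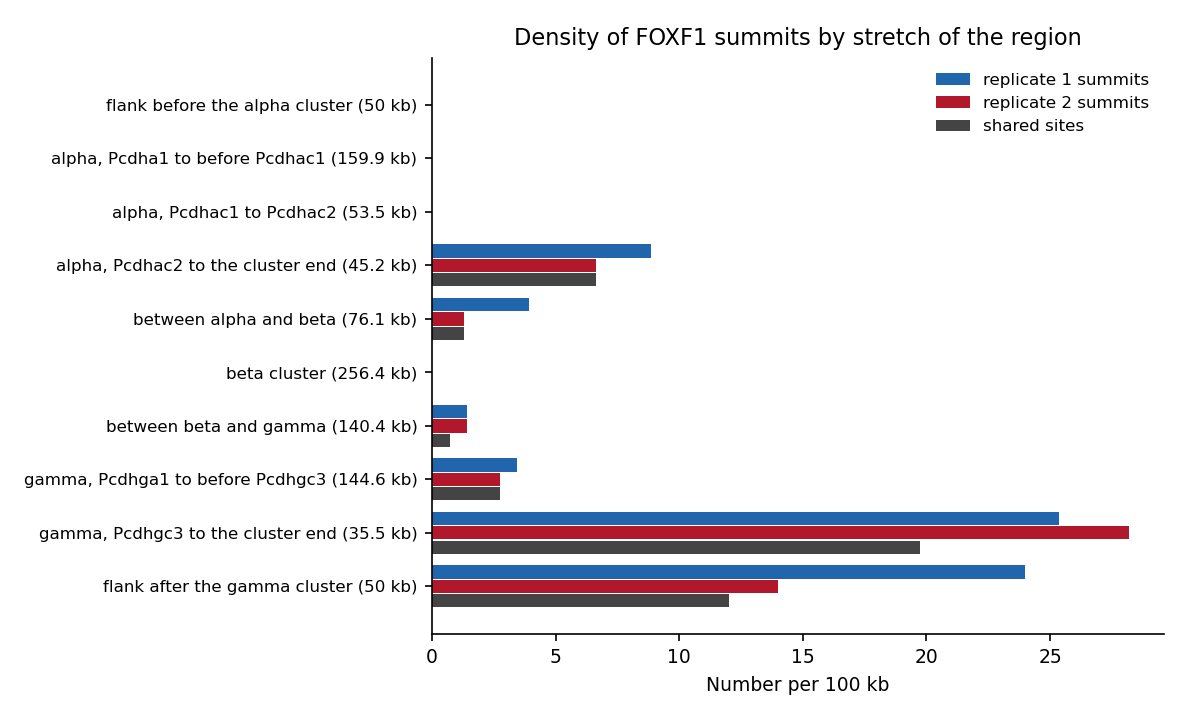
Number of summits of replicate 1, of replicate 2 and of shared sites per 100 kb (horizontal axis) in 10 stretches of the region in map order, with the length of each in kb. Shared sites reach 19.7 per 100 kb from Pcdhgc3 to the cluster end, 12 in the flank after it and 6.63 from Pcdhac2 to the alpha end, and are 0 in the beta cluster and before Pcdhac2.

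As a whole the region was near or below the middle of the surroundings of protein-coding genes, since empty and dense stretches were averaged. Its 22 sites in 1011.6 kb amount to 2.17 per 100 kb, and protein-coding genes with 50 kb on each side had a median of 2.43, with 47.5% of them lower than the region. Drawn the same way, the alpha cluster had 1.12 per 100 kb, the beta cluster 0 and the gamma cluster 6.43, and 32.8%, 0% and 87.7% of protein-coding genes were lower, respectively. Windows as long as the region, centred on each gene, held a median of 27 shared sites, and 38.9% of them held fewer than 22.

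Both replicates left the beta cluster and the stretch from Pcdha1 to the start of Pcdhac2 empty. In the whole region with its flanks replicate 1 had 35 summits and replicate 2 had 27, of 107378 and 61172 on the nuclear chromosomes. The 22 shared sites made up 62.9% of the former and 81.5% of the latter, against 47.5% and 83.4% over the genome. The median gap within a pair was 15 bp, against 13 bp over all shared sites. The order of scores was similar in both replicates (Spearman's rho 0.945 across the 22 sites, 0.883 across all shared sites, which share libraries and input). Of the 13 summits of replicate 1 without a partner, the highest was that at Taf7. The 5 of replicate 2 included a summit inside Diaph1 with a score of 22.1, 999 bp from the nearest one of replicate 1.

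Protocadherin genes that stand alone in the genome, outside the arrays, were set beside the clustered ones. Of 12 such genes 7 had a shared site at most 5 kb from an end (58.3%), near the 54.4% of all protein-coding genes. Strand was given for 9 of them, and 5 of these had a site within 1 kb of the start, against 39.6% of all genes with a strand and 2 of the 57 clustered genes. The 5 were Pcdh7, Pcdh10, Pcdh17, Pcdh18 and Pcdh19. Start sites scored 9.29 and 7.62 at Pcdh7, 8.34 and 5.60 at Pcdh10 and 14.8 and 5.10 at Pcdh19. Those of Pcdh17 and Pcdh18 scored higher. Pcdh1 and Pcdh12, named below, had no strand given and are not among the 5. No test was made, since the clustered genes were chosen with these sites known. The highest sites were those of Pcdh1, known from airway epithelium, with scores of 136.1 and 63.4 at 3770 bp outside the gene, of Pcdh12, a protocadherin of endothelial cells, with 93.8 and 47.0 at 85 bp outside it, and of Pcdh17, with 67.0 and 46.1. Pcdh1 and Pcdh12 stand on the same chromosome as the arrays, to the right of the gamma cluster. Pcdh8, Pcdh9, Pcdh11x, Pcdh15 and Pcdh20 had none so near.

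Promoter sequences of the clustered members were not used here. As examples of lone protocadherin genes with a site near the start, the 250 bases before the start are given for Pcdh17 and Pcdh10. Pcdh18, whose site near the start had scores of 61.4 and 31.9, is not printed. The bases of Pcdh17 (chr14:84443313-84443562, plus strand) go with a site 32 bp after the start. Those of Pcdh10 (chr3:45378148-45378397, plus strand) go with a site 115 bp before it, with low scores of 8.34 and 5.60. Both are from RefSeq on GRCm38.p6, and capitals mark the forkhead core TGTTTA.
Pcdh17: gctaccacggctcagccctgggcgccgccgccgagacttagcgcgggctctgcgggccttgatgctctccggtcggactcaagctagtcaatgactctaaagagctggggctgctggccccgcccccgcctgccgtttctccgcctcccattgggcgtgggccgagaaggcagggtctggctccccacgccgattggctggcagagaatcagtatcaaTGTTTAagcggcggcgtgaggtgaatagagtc
Pcdh10: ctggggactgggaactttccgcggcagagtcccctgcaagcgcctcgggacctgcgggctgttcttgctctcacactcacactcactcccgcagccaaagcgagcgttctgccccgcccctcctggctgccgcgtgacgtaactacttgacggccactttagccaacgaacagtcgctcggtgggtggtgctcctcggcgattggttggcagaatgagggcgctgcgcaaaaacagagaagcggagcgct
The core was searched on both strands, so as TGTTTA or TAAACA, in the 250 bases before the start. Of the 9 lone protocadherin genes in the table, Pcdh17 alone held it, beginning 32 bases before the start, against 12% of the first-listed promoters of 27025 genes. The longer TGTTTAC, which contains the core, was in none of the 9 and in 3.09% of all. The starts in this search are those of the listed promoters, while the site counts above used the annotated starts. For Pcdh7, Pcdh9 and Pcdh15 the promoter start lay 1936, 2155 and 725590 bp from the annotated one. The Pcdh7 site lay 244 bp from the annotated start but 2180 bp from the promoter start. A match describes letters only.

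Other gene clusters were read with the same window of 5 kb around either end, against the 54.4% of all protein-coding genes. Of 9 Ugt1a genes, which encode glucuronidating enzymes and also join variable first exons to common ones, 0 had a shared site. These genes overlap at a single locus on chromosome 1, with right ends at 88218998 or 88220002, so they are not 9 separate absences. Of 47 Cyp2 genes, a family of cytochrome P450 enzymes with many members in tandem arrays, 5 had one (10.6%). By the mean of both percentiles these were led by Cyp2c23 with scores of 245.2 and 106.5, Cyp2d22 with 130.7 and 53.8 and Cyp2r1 with 27.9 and 13.4. Cyp2c23, at 44005022 on chromosome 19, and Cyp2r1, at 114550123 on chromosome 7, stand apart from the Cyp2 arrays of those chromosomes. Among the 39 Hox genes, transcription factors of body axis patterning in several arrays, 20 had one (51.3%), led by a site at 96309517 on chromosome 11, inside Hoxb3 and 3396 bp outside Hoxb5, with scores of 187.6 and 80.3. It was followed by a site with 121.1 and 51.4, located 451 bp outside Hoxb7 and 2200 bp outside Hoxb6.

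Genes that act with protocadherins were read in the same way. Among 18 genes of the chromatin machinery known to work on the clusters, 11 had a shared site in that window (61.1%, against 54.4% of all protein-coding genes). By the mean of both percentiles Rad21, a cohesin subunit, led with scores of 83.6 and 57.3, followed by the cohesin gene Stag2 with 89.3 and 51.4 and by the cohesin release factor gene Wapl with 61.0 and 55.3. Ctcf itself had a site 1552 bp inside its start, with scores of 35.1 and 9.76. Dnmt1, Dnmt3a, Nipbl, Pds5b, Smc3, Smchd1 and Stag1 had none so near an end. Of these, Smchd1 had none within the gene either, while Dnmt3a had 9 sites farther inside and Stag1 had 6. Among 12 genes of intracellular partners, such as kinases and the actin-regulating WAVE complex, 9 had a site (75%, against the same 54.4%). They were led by Abi1 of that complex with 200.6 and 116.0, by Ctnnb1, the gene of beta-catenin, with 121.5 and 76.5, and by the focal adhesion kinase gene Ptk2 with 89.3 and 68.0. Counts of this size were not tested against the genome.

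Other cadherins had sites at some members and none at others. Of 20 genes of the Cdh family 5 had a shared site at most 5 kb from an end (25%, against 54.4% of all protein-coding genes). The highest was that of Cdh5, the cadherin of endothelial junctions, with scores of 143.7 and 88.2, followed by Cdh3 with 113.0 and 39.6 and by the epithelial cadherin gene Cdh1 with 25.9 and 29.9. Some Cdh genes without a site so near an end had sites farther inside. Cdh13 had 17 such sites, Cdh4 had 6, Cdh18 had 5, and Cdh10 and Cdh26 had 1 each. The remaining Cdh genes had none inside either. Of 9 genes of the large Fat, Dachsous and Celsr cadherins 5 had a site near an end (55.6%, close to that background), led by Fat4, a receptor of planar polarity, with 63.5 and 40.5, then by Dchs1, its ligand, with 50.8 and 14.1 and by Celsr1 with 22.2 and 19.1. Farther inside, Fat1 had 4 sites and Fat3 had 2, while Fat2 and Celsr2 had none.

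RefSeq also lists 3 protein-coding genes that run from an alpha first exon to the end of the gamma cluster. Gm37013, Gm38666 and Gm38667 begin by Pcdha4, Pcdha6 and Pcdha7 and span 889.2, 874.2 and 868.1 kb. They are not members by symbol, and each of them spans 16 of the 22 shared sites. Pcdhgb8 is listed as a transcribed pseudogene and was not counted.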

How the data were processed

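FOXF1 binding was measured by ChIP-seq in 2 pools of 3 whole lungs. Lungs were fixed in 1% formaldehyde, and 10 µg of enzyme-cut, sonicated chromatin went into each precipitation with 7 µg of antibody, per the labels' protocols. Peaks were called with MACS2 on mm10, per the submitters' processing notes, and names in the deposited files show 1 call per replicate against the input. Each entry is a summit of 1 base with a score, the authors' −log10 of a p-value or q-value; which of these is not stated. The aligner, read depth and the handling of duplicates and of reads that match several places were not given in the sources used here. Input reads entered only through the peak calls.

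Mitochondrial summits were left out, which kept nuclear summits only (107378 of 107388 and 61172 of 61178). Summits were paired when mutual nearest within 100 bp. Genes came from a RefSeq table of GRCm38.p6, the assembly of mm10, with no strand; a promoter table gave strands for 17492 of 21887 protein-coding genes and for 0 of the 57 members. All positions are 1-based on mm10. Percentiles are ranks among all summits of a replicate. Sites, windows and gene lists were counted in Python 3.11.15 with numpy 2.4.6 and pandas 2.3.3, and the pairing was checked on simulated summits. Named were the first and last gene and the 3 highest sites of each cluster, every gene with a site within 1 kb of its start, genes that a site's position made it necessary to name (chosen after the positions were seen), the neighbours, and the 3 highest genes of each list. Members and lists were chosen with earlier results of these data known. Alternatives were pairing distance, score minimum, the 10000 highest summits, single replicates, window and flank.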

Additional observations from a re-analysis of the deposited data

How the results depend on the processing

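The alternative runs were pairing within 50 and 200 bp, scores of at least 10, the 10000 highest summits of each replicate and either replicate alone. The beta cluster had 0 sites in each. Neither replicate had a summit there, so these runs could give no other value and are no check of the absence. With both scores at least 10, the gamma cluster kept 6 sites and the region 14. With the 10000 highest summits of each replicate, counts were 0 in the alpha cluster, 2 in the gamma cluster and 6 in the region. The density of the region was then higher than around 75.04% of protein-coding genes. Of the members 0 had a site within 1 kb of the start, and the share of all genes by that measure was not computed at this setting. The 14 members with a site at most 5 kb from an end were the alpha genes. All of them were counted through the single site at 37191336, past their right ends. With those summits 7.0% of all protein-coding genes had a site that near an end, against 54.4%, and the companion lists kept 2 lone protocadherins, 1 Cdh gene, 0 Fat, Dachsous and Celsr genes, 1 chromatin gene and 3 partner genes. A window of 1 kb left 21 members and 3 Fat, Dachsous and Celsr genes, with 41.5% of all protein-coding genes counted, and a window of 20 kb gave 8 Cdh genes, with 69.1% of all counted. With 1 replicate left out the region held 27 to 35 summits and 6 to 8 Cdh genes had one, with 60.8 to 67.4% of all protein-coding genes counted. The cause of these shifts was not tested, beyond the fewer or more summits that each setting admits. Of 90 alternative values, 72 stayed within 1.5 times the reported one. These 72 include the values of 0 in the beta cluster, which no setting could change. Without read depth, a stretch with no summit is one where none was called, and its limit of detection is unknown. No paired analysis was possible because the study has 1 ChIP group and the input has no list of its own here.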
